A study of Mus musculus with 16 samples.

Results

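The comparison of APPtg/CETPtg with CETPtg mice under vehicle was made on 8 of the 16 brain RNA samples of the series, chosen by their labels as the vehicle-treated mice, with 4 of each genotype. Both genotypes carried the human CETP transgene, and the APPtg/CETPtg mice had in addition a human APP transgene with the Swedish and Indiana mutations, which the Thy1 promoter drives in neurons. The mice were heterozygous females on a C57/bl6 background, were fed 1% (w/w) cholesterol from the age of 11 weeks, and were injected daily with the vehicle of evacetrapib (Kolliphor EL and glucose) for 11 weeks. The remaining 8 mice had the same genotypes and diet, and were injected with 30 mg/kg of the CETP inhibitor evacetrapib instead. The comparison asks what the APP transgene changes in the brain of a mouse that already has CETP. It holds no mouse without CETP, so the CETP transgene and the diet are shared by all groups.

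Mutant APP is cut by the β- and γ-secretases into amyloid-β, which can be deposited as plaques. Around plaques, microglia leave their resting state and switch on a lipid-handling and phagocytic programme that depends on the receptor Trem2, and astrocytes raise Gfap. CETP exchanges cholesteryl esters and triglycerides between lipoproteins, and mice have no CETP of their own.

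Each of the 8 brains had 21866883 to 55453789 reads assigned to genes. The highest total, that of the APPtg/CETPtg mouse S8, lay far above the 21866883 to 27398792 of the other APPtg/CETPtg mice, and the CETPtg mice had 28626139 to 37709734. The 4 CETPtg libraries stood in column 12 of the index plate and the 4 APPtg/CETPtg libraries in column 9, so that plate column and genotype cannot be told apart. Neurons, astrocytes, oligodendrocytes, microglia and endothelium were all represented by their markers. Snap25 lay between 2140 and 2370 CPM (the count relative to the scaled library size), Slc1a2 between 1120 and 1840 CPM, Mbp between 1810 and 2440 CPM, Csf1r between 103 and 127 CPM and Cldn5 between 18.7 and 34.7 CPM. The cerebellar markers Gabra6 and Pcp2 had at most 4 and 11 counts in any of the 8 mice.

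Thy1 (ENSMUSG00000032011, chromosome 9 of GRCm38, 44043384 to 44048579), a neuronal surface glycoprotein whose promoter drives the transgene, was used to check the labels. The CETPtg mice S1 to S4 had 701, 706, 707 and 730 CPM, and the APPtg/CETPtg mice S5 to S8 had 2060, 1420, 886 and 974 CPM. Every APPtg/CETPtg mouse was above every CETPtg mouse, and the APPtg/CETPtg mice differed among themselves far more than the CETPtg mice did. The log2 fold change was 0.91 (standard error 0.217, edgeR's quasi-likelihood test, adjusted p = 0.0135), or 0.62 without S5. In an exact two-sided permutation test, 2 of the 70 labelings were as extreme (p = 0.0286, the smallest that 4 mice against 4 allow). Mouse App (ENSMUSG00000022892, chromosome 16, 84949685 to 85173766) is the gene of the endogenous precursor. Reads were aligned to the mouse genome mm10, so reads of the human transgene that match App could be counted with it, which was not tested. App had 2250, 2160, 2070 and 2280 CPM in CETPtg mice and 2720, 2370, 2260 and 2230 CPM in APPtg/CETPtg mice. These ranges overlapped, and the log2 fold change of 0.13 did not pass the test (edgeR, standard error 0.0718, adjusted p = 0.286, exact permutation p = 0.143).

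A gene was called a DEG where its level changed by 5% or more at an adjusted p no higher than 0.05, which 1934 of the 18609 genes tested did (10.4%). The upregulated genes numbered 1112 (5.98%) and the downregulated genes 822 (4.42%). In the whole table, 4687 genes (25.2%) had an unadjusted p below 0.05. Most changes were small, with a median absolute log2 fold change of 0.25 among the DEGs, and 188 DEGs changed 1.5-fold or more, 117 upward and 71 downward. The CPM ranges of the genotypes did not overlap in 3155 of the genes tested (17.0%), 1791 of them higher (9.62%) and 1364 lower (7.33%) in APPtg/CETPtg mice, and among the DEGs in 1722. Without 1 mouse, the count of DEGs fell to between 882 (without S3) and 1670 (without S7), and it was 1010 without S1 and 1200 without S8.

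**Figure D1:**
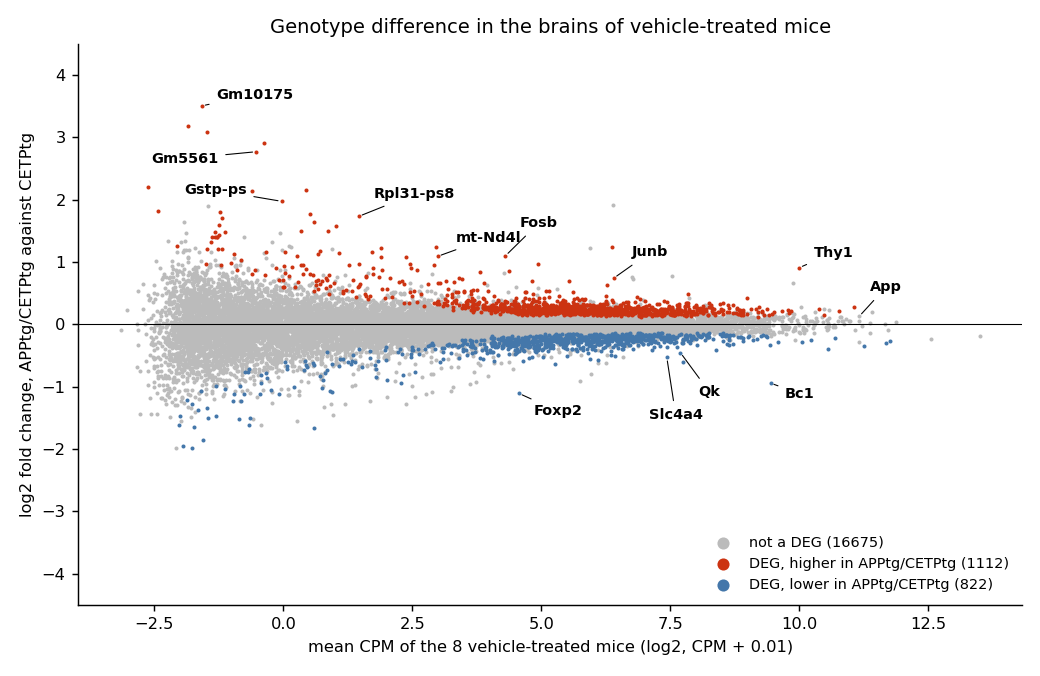
Each point is 1 of the 18609 genes tested, with the mean CPM of the 8 vehicle-treated mice on a log2 axis and the log2 fold change of APPtg/CETPtg against CETPtg mice on the other. The 1112 upregulated DEGs are red and the 822 downregulated DEGs blue. The highest fold changes belong to copies of other genes with low CPM, such as Gm10175 and Gm5561, while Foxp2, Bc1 and Thy1 stand out at higher CPM.

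The DEG with the smallest p was Foxp2 (ENSMUSG00000029563, chromosome 6, 14901349 to 15441977), a transcription factor of deep cortical layers, striatum, thalamus and Purkinje cells. CETPtg mice had 34.2, 32.7, 29.4 and 33.2 CPM, and APPtg/CETPtg mice 15.6, 12.1, 16.8 and 15.4 CPM. The ranges lay far apart, with a log2 fold change of -1.11 (edgeR, standard error 0.0914, adjusted p = 4.31e-06). In evacetrapib-treated mice, which are other animals, the difference was of much the same size, at -1.08 (edgeR, adjusted p = 8.52e-06).

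Slc4a4 (ENSMUSG00000060961, chromosome 5, 88886818 to 89239653), the sodium bicarbonate cotransporter of astrocytes, had 200, 203, 205 and 210 CPM in the 4 CETPtg brains. The levels in APPtg/CETPtg mice were 134, 144, 147 and 141 CPM. The mice of each genotype hardly differed from each other, and the log2 fold change was -0.53 (edgeR, standard error 0.0524, adjusted p = 2.13e-05). Under evacetrapib it was -0.19 and did not pass the test (edgeR, adjusted p = 0.0575).

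Bc1 (ENSMUSG00000115783, chromosome 7, 144914470 to 144914637, plus strand) is a short noncoding RNA of dendrites that represses translation. It is transcribed by RNA polymerase III and has no protein product. Its annotated transcript in GENCODE M21 has 168 bases and is printed whole. Capitals mark its A-rich stretch, bases 77 to 136, in which 49 of 60 bases are A.
Bc1: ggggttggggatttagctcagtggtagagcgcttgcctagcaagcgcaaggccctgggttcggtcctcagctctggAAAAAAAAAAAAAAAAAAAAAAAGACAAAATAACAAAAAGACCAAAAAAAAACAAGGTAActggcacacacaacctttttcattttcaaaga
CETPtg mice had 956, 892, 1010 and 816 CPM of Bc1 and APPtg/CETPtg mice 538, 476, 375 and 521 CPM. The groups did not overlap, and Bc1 was downregulated (log2 fold change -0.94, edgeR, standard error 0.121, adjusted p = 0.000235).

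The other 12 downregulated genes with the smallest p had log2 fold changes between -0.58 and -0.33. Zfp871 (-0.58), Zfp26 (-0.58), Zkscan8 (-0.37) and Zbtb20 (-0.51) encode zinc finger proteins, Foxn3 (-0.52) a forkhead factor, and Crebbp (-0.39) a histone acetyltransferase, each value being a log2 fold change. Qk (-0.45) and Msi2 (-0.46) encode RNA-binding proteins, and Qk regulates the splicing of myelin transcripts. Nrxn3 (-0.33) encodes a presynaptic adhesion molecule, Hook3 (-0.37) an adaptor of dynein, Mboat2 (-0.33) a lysophospholipid acyltransferase and Thsd7a (-0.39) a membrane protein with thrombospondin repeats. Their adjusted p in edgeR's test lay between 0.000141 for Zfp871 and 0.000631 for Thsd7a. For Qk the values were 243, 235, 244 and 237 CPM in CETPtg mice and 162, 178, 186 and 175 CPM in APPtg/CETPtg mice. For Zbtb20, a gene of hippocampal neurons and astrocytes, they were 103, 107, 105 and 91.2 CPM against 71.4, 75.1, 69.0 and 70.4 CPM. Neither gene had overlapping groups. Hook3 and Zkscan8 were no longer DEGs once the trend of each mouse with GC content and transcript length was removed (edgeR, adjusted p = 0.104 and 0.0849), and the other 10 kept the call.

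**Figure D2:**
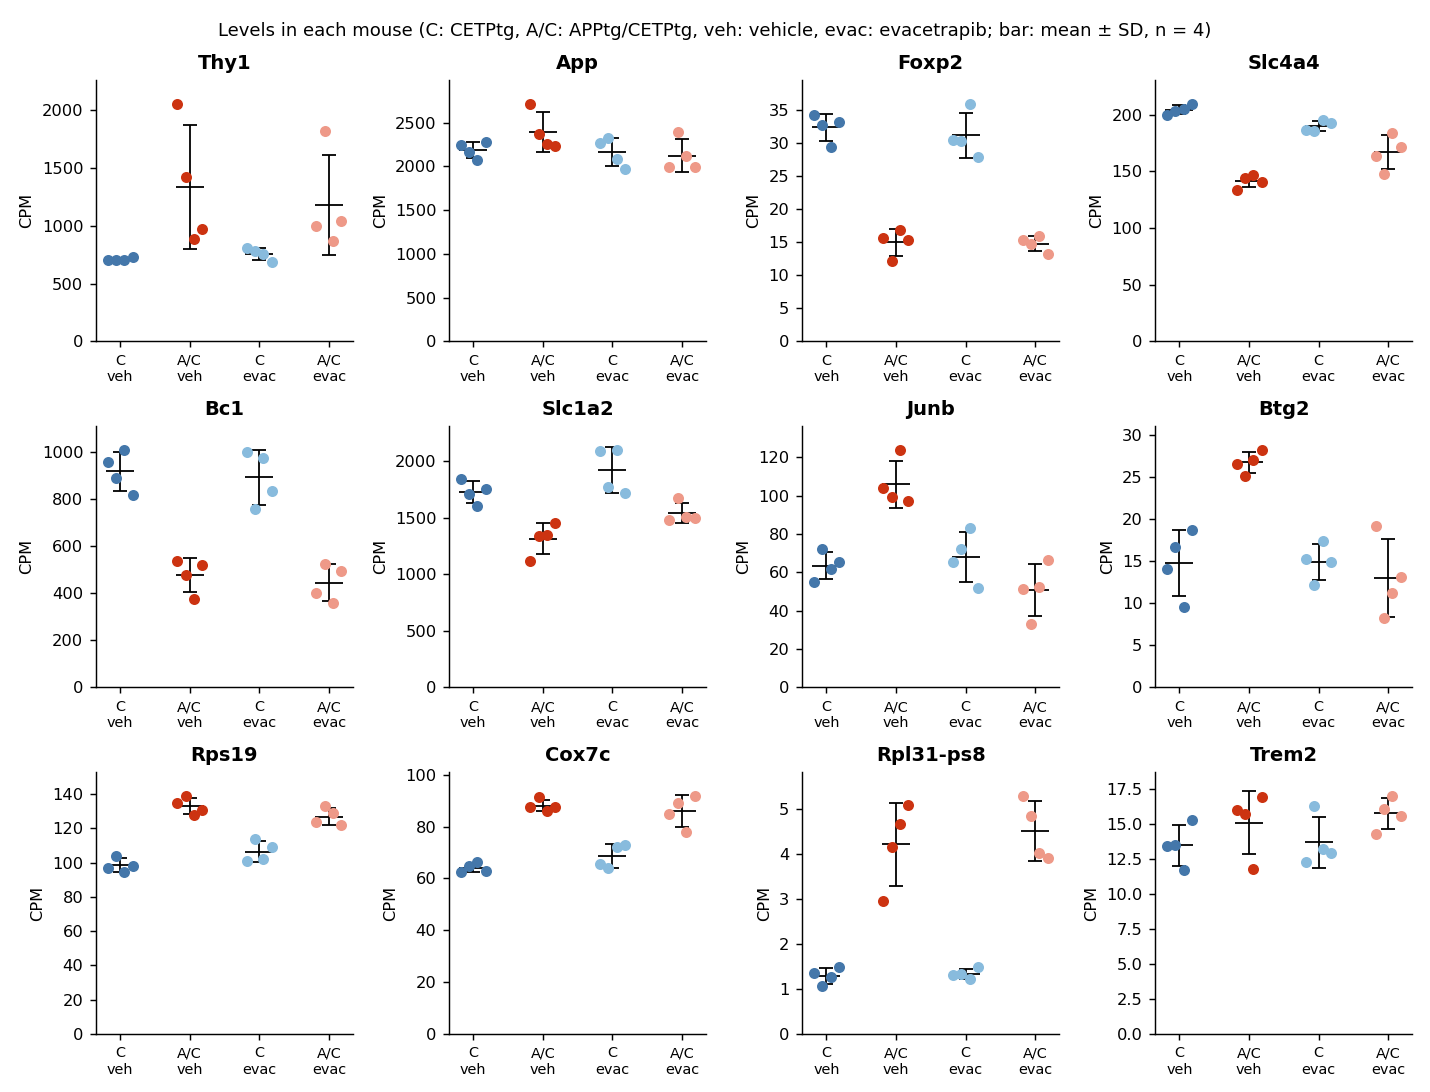
CPM of 12 genes in each of the 16 mice, with 4 points per group and the mean ± SD (n = 4) as a bar, on axes that start at 0. Foxp2, Bc1, Rps19, Cox7c and Rpl31-ps8 separate the genotypes under both treatments. Junb and Btg2 separate them under vehicle and overlap under evacetrapib, and Trem2 overlaps under both.

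Among the 15 upregulated genes with the smallest p were genes of ribosomes and mitochondria. Rps19 (ENSMUSG00000040952, chromosome 7), a protein of the small ribosomal subunit, had 97.1, 104, 94.7 and 98.3 CPM in CETPtg mice and 135, 139, 128 and 131 CPM in APPtg/CETPtg mice. Cox7c (ENSMUSG00000017778, chromosome 13), a subunit of cytochrome c oxidase, had 62.5, 64.8, 66.5 and 62.8 CPM against 87.5, 91.3, 85.9 and 87.7 CPM. Both separated the genotypes, with log2 fold changes of 0.44 (edgeR, standard error 0.0482, adjusted p = 5.89e-05) and 0.46 (edgeR, standard error 0.0553, adjusted p = 0.000141). Ndufb9, a subunit of complex I, rose by 0.36 on the log2 scale (edgeR, adjusted p = 0.000225).

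Families were formed by name pattern after such genes had been seen, so their counts are descriptions. Of 78 cytosolic ribosomal protein genes, 63 were upregulated, beside 5.98% of all genes tested, and 0 downregulated. Their log2 fold changes lay between 0.06 and 0.45. Summed over the family, CETPtg mice had 11100 to 12100 CPM and APPtg/CETPtg mice 13300 to 13700 CPM. Of 77 nuclear genes for respiratory chain and ATP synthase subunits, 47 were upregulated and 0 downregulated, and of 38 proteasome subunits, 13 were upregulated and 0 downregulated. Of 360 Zfp zinc finger genes, 24 were downregulated, beside 4.42% of all genes tested, and 4 were upregulated. With the trend for GC content and length removed, 7 ribosomal protein genes, 15 respiratory chain genes and 4 proteasome genes remained above the thresholds, and the median log2 fold change of the ribosomal protein genes went from 0.21 to 0.12. That of the Zfp genes went from -0.08 to 0.01, and 4 were then downregulated and 2 upregulated.

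The median transcript length was 706 bases for the ribosomal protein genes, 771 bases for the respiratory chain genes and 2331 bases for the Zfp genes. The DEGs as a whole differed in length too. Upregulated genes had a median transcript length of 1011 bases, downregulated genes of 3125 bases and all genes tested of 1761 bases. With the genes in 5 quintiles of length, 573 genes of the shortest quintile (median 782 bases) were upregulated and 19 downregulated, and of the longest (median 3646 bases) 27 were upregulated and 493 downregulated. The median GC content of upregulated genes was 54.7%, that of downregulated genes 45.2%. In each mouse, the mean log2 CPM of the shortest quintile minus that of the longest, both centred over the 16 mice, lay between -0.143 and -0.068 in CETPtg mice and between 0.080 and 0.151 in APPtg/CETPtg mice. Among evacetrapib-treated mice the same measure ran from -0.102 to -0.035 in CETPtg and from 0.034 to 0.109 in APPtg/CETPtg mice. It therefore separated the genotypes, and with them the plate columns, in both treatments. With the trend of each mouse removed, 461 genes were DEGs (2.48%), 345 upregulated (1.85%) and 116 downregulated (0.623%), and 358 of them were DEGs with the same sign before. Upregulated genes were then 74.8% of the DEGs, against 57.5% before.

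**Figure D3:**
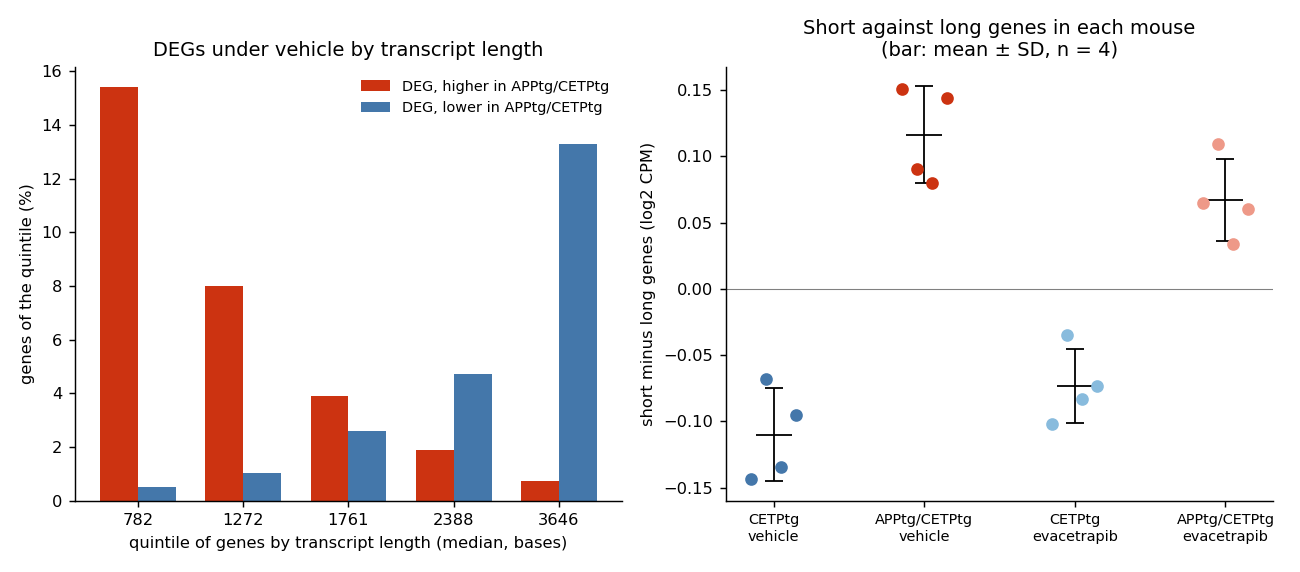
Left, the percentage of genes that were upregulated (red) or downregulated (blue) DEGs in each quintile of the genes by transcript length, with its median length in bases under the bars. Right, the difference in log2 CPM between the shortest and the longest quintile in each mouse, with the mean ± SD of 4 mice as a bar. Upregulated genes are 15.4% of the shortest and 0.727% of the longest quintile, and all APPtg/CETPtg mice lie above all CETPtg mice.

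The highest fold changes belonged to processed pseudogenes and to Rpl10-ps3 (log2 fold change 3.19), which bears a pseudogene's name but is annotated as coding. Gm10175 (log2 fold change 3.51) averaged 0.049 CPM in CETPtg and 0.599 CPM in APPtg/CETPtg mice. Among these 8 mice it could therefore reach the 10 counts of the filter only in the genotype in which it was high. Of 857 processed pseudogenes tested, which are copies of spliced transcripts inserted back into the genome, 79 were upregulated and 5 downregulated. In either direction, 9.8% of them were DEGs, beside 10.4% of all genes tested. Of all genes tested, 5.98% were upregulated. Among the upregulated pseudogenes, 78 had a coding sequence of at least 80% identity. In 56 of these 78 pairs the coding gene was itself upregulated, and in at least 37 it encoded a ribosomal protein, with some coding genes standing in more than 1 pair. The pseudogenes had a median of 0.954 CPM in CETPtg mice and their coding genes of 134 CPM. These pseudogenes were taken because they passed the test, so the size of their fold changes is a description. Over all 857 the median log2 fold change was 0.15. Reads from near-identical copies can be assigned to either, so the values of all these pseudogenes are uncertain. The first pair below shows a copy with no difference from its gene in the 100 bases given, and the second a copy on the Y chromosome. The bases are given 5′ to 3′ from GENCODE M21, and capitals mark the 3 bases that differ between Gapdh and Gapdh-ps15.
Rpl31: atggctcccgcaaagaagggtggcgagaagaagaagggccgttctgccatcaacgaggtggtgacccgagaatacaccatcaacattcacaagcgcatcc
Rpl31-ps8: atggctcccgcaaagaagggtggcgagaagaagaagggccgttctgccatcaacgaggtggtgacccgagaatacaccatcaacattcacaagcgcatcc
Gapdh: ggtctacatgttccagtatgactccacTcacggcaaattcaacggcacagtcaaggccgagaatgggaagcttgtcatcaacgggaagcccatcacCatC
Gapdh-ps15: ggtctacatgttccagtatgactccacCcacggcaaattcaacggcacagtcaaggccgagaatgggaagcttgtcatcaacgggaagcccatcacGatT

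Rpl31-ps8 (chromosome 15, 90764279 to 90764656, minus strand) matched the coding sequence of Rpl31 (chromosome 1, 39367842 to 39371911, plus strand), a protein of the large ribosomal subunit, in all of 346 bases. It had 45, 39, 48 and 42 counts in CETPtg mice, or 1.28 ± 0.181 CPM (SD, n = 4), and 65, 92, 128 and 283 counts in APPtg/CETPtg mice, or 4.21 ± 0.924 CPM. Rpl31 had 159 to 175 CPM against 193 to 212 CPM. The CPM of neither gene overlapped between the groups. The log2 fold change was 1.73 for the pseudogene (edgeR, standard error 0.17, adjusted p = 2.13e-05) and 0.26 for its coding gene (edgeR, standard error 0.0527, adjusted p = 0.00519). Gstp-ps (1.98), Gm5561 (2.77), Rps16-ps2 (1.17), Gm10123 (0.54), Gm14303 (1.08), Rpl28-ps1 (1.64), Gm8451 (1.5) and Gpx4-ps2 (0.87) were further pseudogenes among the 15 upregulated genes with the smallest p, with log2 fold changes in parentheses. Gm2000, annotated as coding but 99.7% identical to Rpl35 over 369 bases, rose by 1.08 on the log2 scale (edgeR, adjusted p = 3.65e-05).

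Gapdh-ps15 (chromosome Y, 38619783 to 38620784), chosen after its values were seen, matched the coding sequence of Gapdh in 99.5% of 999 bases. These mice were females, and Kdm5d, Ddx3y, Uty and Eif2s3y, genes of the male-specific part of the Y chromosome, had 0 counts in all 8. Gapdh-ps15 was nevertheless listed with 6, 6, 8 and 7 counts in CETPtg and 13, 16, 18 and 28 counts in APPtg/CETPtg mice, or 0.161 to 0.247 CPM against 0.503 to 0.721 CPM. It counted as upregulated (log2 fold change 1.59, edgeR, standard error 0.279, adjusted p = 0.00239). Among these 8 mice Gapdh-ps15 reached the 10 counts of the filter only in the APPtg/CETPtg mice, as did Gm5561 with 8, 9, 6 and 1 against 25, 21, 39 and 72 counts, so both passed the filter through the genotype in which they were high. Gapdh had 1600 to 1800 CPM against 1700 to 1960 CPM and did not pass the test (log2 fold change 0.11, edgeR, adjusted p = 0.269).

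Of 17 immediate early genes, which neurons switch on within minutes of activity, 7 were upregulated, beside 5.98% of all genes tested. In this list 0 were downregulated and all 17 had a positive log2 fold change, with a median of 0.60 beside 0.0 over all genes. Junb, a partner of Fos in the AP-1 factor, had 55.0, 72.0, 61.6 and 65.2 CPM in CETPtg and 104, 99.4, 124 and 97.1 CPM in APPtg/CETPtg mice. The log2 fold change of Junb was 0.74 (edgeR, standard error 0.154, adjusted p = 0.00659). Btg2, an antiproliferative gene, had 14, 16.7, 9.59 and 18.7 CPM against 26.5, 25.1, 27 and 28.2 CPM (log2 fold change 0.86, edgeR, adjusted p = 0.00872). Neither gene had overlapping groups.
Fosb (1.1), Egr2 (1.24), Fos (0.96), Egr4 (0.70) and Ier2 (0.52) were also upregulated, with adjusted p in edgeR's test between 0.00592 for Egr4 and 0.0424 for Ier2. Fosb, which marks repeated activity, had 10.4 to 13.8 CPM in CETPtg mice and 16.8, 48.6, 25.1 and 17.6 CPM in APPtg/CETPtg mice, so that S6 stood apart.
Arc, which acts at the synapse, and the activity-dependent factors Npas4 and Egr1 did not pass the test, with log2 fold changes of 0.78, 0.60 and 0.31 (edgeR, adjusted p = 0.0901, 0.0575 and 0.282). Fosb, Btg2, Junb and Egr4 alone were upregulated without S1, without S7 and with the trend for GC content and length removed, while 12 genes were with plate row as a block and 13 with no filter on low counts.

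Of 14 pan-neuronal genes, 3 were upregulated, Thy1, Uchl1 and Stmn2, beside 5.98% of all genes tested. Thy1 is the gene whose promoter drives the transgene and was used above to check the labels, so its call is no separate finding about neurons. Uchl1, a neuronal ubiquitin hydrolase, had 470, 435, 429 and 406 CPM in CETPtg and 541, 678, 541 and 563 CPM in APPtg/CETPtg mice, without overlap (log2 fold change 0.42, edgeR, standard error 0.0736, adjusted p = 0.00249). Stmn2, a regulator of microtubules in axons, rose by 0.25 on the log2 scale (edgeR, adjusted p = 0.0102).
Of 12 excitatory neuron genes, Fezf2 (0.52), a selector of deep layer projection neurons, and Neurod2 (0.30) were upregulated, and of 12 interneuron genes, the neuropeptides Sst (0.32) and Cck (0.49). In each list this was 16.7%, beside 5.98% of all genes tested. Sst had 172 to 185 CPM in CETPtg and 204 to 232 CPM in APPtg/CETPtg mice, and the ranges did not overlap. With the trend for GC content and length removed, Stmn2 and Fezf2 remained DEGs, and Thy1, Uchl1, Neurod2, Sst and Cck did not.
At synapses, 2 of 17 postsynaptic genes were downregulated, beside 4.42% of all genes tested. These were the NMDA receptor subunit Grin2b (-0.41) and the scaffold Shank1 (-0.25), and 16 of the 17 had a negative log2 fold change. Grin2b had 427, 358, 396 and 358 CPM against 253, 326, 302 and 274 CPM (edgeR, adjusted p = 0.00549). Of 17 presynaptic genes, 17.6% were DEGs, beside 10.4% of all genes tested. Among them, Pclo (-0.20), a scaffold of the active zone, was downregulated and the SNARE protein Stx1a (0.26) upregulated. Shank1 was lost without S1, S4 or S5, and neither Pclo nor Stx1a was called without S1 or S3. None of Grin2b, Shank1, Pclo and Stx1a remained a DEG with the trend for GC content and length removed.

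Astrocyte genes were the cell type markers with the most downregulated members. Of 14 astrocyte identity genes, 6 were downregulated, beside 4.42% of all genes tested, and 0 upregulated. In that direction 7 had groups without overlap, beside 7.33% of all genes. The median log2 fold change of the list was -0.12, and 5 of the 14 had a positive one. Besides Slc4a4 the downregulated genes were the glutamate transporters Slc1a2 (-0.39) and Slc1a3 (-0.21), the transcription factor Sox9 (-0.41), the water channel Aqp4 (-0.38) and the gap junction protein Gja1 (-0.27). Slc1a2 had 1840, 1710, 1600 and 1750 CPM in CETPtg and 1120, 1340, 1350 and 1450 CPM in APPtg/CETPtg mice (edgeR, standard error 0.0784, adjusted p = 0.00539). Sox9 had 23.8 to 26.5 CPM against 16.1 to 22.5 CPM (edgeR, adjusted p = 0.00664). Summed over the list, CETPtg mice had 6520 to 7070 CPM and APPtg/CETPtg mice 5540 to 6320 CPM. In bulk tissue, fewer cells of a type and less RNA per cell cannot be told apart. The count was 3 without S3 or without S5, and with the trend for GC content and length removed only Slc4a4 and Slc1a2 remained DEGs.

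Genes of reactive astrocytes were not DEGs. Of 15 tested, 0 passed the thresholds in edgeR's test and 2 had an unadjusted p below 0.05, beside 25.2% of all genes tested. The median log2 fold change of the list was 0.05. DESeq2's Wald test called 1, S100a10. Gfap, the filament protein of reactive astrocytes, had 146, 142, 163 and 147 CPM in CETPtg and 112, 211, 142 and 154 CPM in APPtg/CETPtg mice, a log2 fold change of 0.05 (edgeR, standard error 0.153, adjusted p = 0.88). The members with the largest log2 fold changes were Lcn2 (0.56), Aspg (0.51) and Serpina3n (0.27), with adjusted p of 0.575, 0.150 and 0.43 in edgeR's test. Steap4, Tgm1 and Ptx3 had too few counts to be tested.

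The microglial programme of plaques was not called either. In their response to referees, the authors write that staining of brain sections detected no plaques, likely because the mice were young. RNA counts cannot show whether the 8 brains held plaques. Of 22 plaque-associated microglia genes tested, 0 were DEGs in edgeR's test or DESeq2's Wald test. An unadjusted p below 0.05 was found in 6, beside 25.2% of all genes tested. The median log2 fold change was 0.08, and the list summed to 3110 to 3350 CPM in CETPtg and 3100 to 3390 CPM in APPtg/CETPtg mice. Trem2 had 13.4, 13.5, 11.7 and 15.3 CPM against 16, 15.7, 11.8 and 16.9 CPM, which overlapped (log2 fold change 0.17, edgeR, standard error 0.11, adjusted p = 0.356). The largest log2 fold changes of the list were those of Ccl6 (0.55), Spp1 (-0.47) and Cd74 (-0.43), with adjusted p of 0.112, 0.153 and 0.18 in edgeR's test. Cd74 passed it without S4, Spp1 and Igf1 without S6 and Ccl6 without S7. Cst7, Ccl3 and Ccl4, among the defining genes of this state, had at most 7, 16 and 12 counts in any of the 8 mice and were not tested.

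Of 14 homeostatic microglia genes, 3 were upregulated, beside 5.98% of all genes tested, and 0 downregulated. Aif1, the calcium-binding protein stained as Iba1, had 3.06, 3.12, 2.87 and 3.10 CPM in CETPtg and 4.04, 5.59, 3.24 and 5.08 CPM in APPtg/CETPtg mice (log2 fold change 0.57, edgeR, standard error 0.137, adjusted p = 0.0145). Tmem119, a membrane protein of resident microglia, had 22.9 to 26.3 CPM against 27.3 to 32.1 CPM (log2 fold change 0.25, edgeR, adjusted p = 0.0331), and Selplg rose by 0.23 on the log2 scale (edgeR, adjusted p = 0.0397). All 3 lacked overlap, as did 9.62% of all genes tested in that direction. The list of 14 summed to 479 to 542 CPM against 475 to 541 CPM. Leaving out 1 mouse changed the count: 0 were upregulated without S3 or S8, and only Aif1 was without S1, S2 or S7. Sall1, a transcription factor that is also made by other brain cells, had a log2 fold change of -0.44 and did not pass the test (edgeR, adjusted p = 0.262), but was called downregulated without S6.
Of 15 complement genes, only C1qc (0.21) was upregulated, which was 6.67% of the list beside 5.98% of all genes tested. C1qc had 37.5 to 40.9 CPM against 43.0 to 49.1 CPM (edgeR, adjusted p = 0.0392), and lost the call without S1, S2, S3, S6 or S8. C3 (-0.54), C5ar1 (-0.43) and C1ra (0.31) had larger log2 fold changes that did not pass (edgeR, adjusted p = 0.264, 0.419 and 0.449). No gene of the microglia and complement lists remained a DEG with the trend for GC content and length removed. Of 19 interferon-stimulated and 13 antigen presentation genes, 0 were DEGs by edgeR or DESeq2. An unadjusted p below 0.05 was found in 0 and 3 of them, beside 25.2% of all genes tested.

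**Figure D4:**
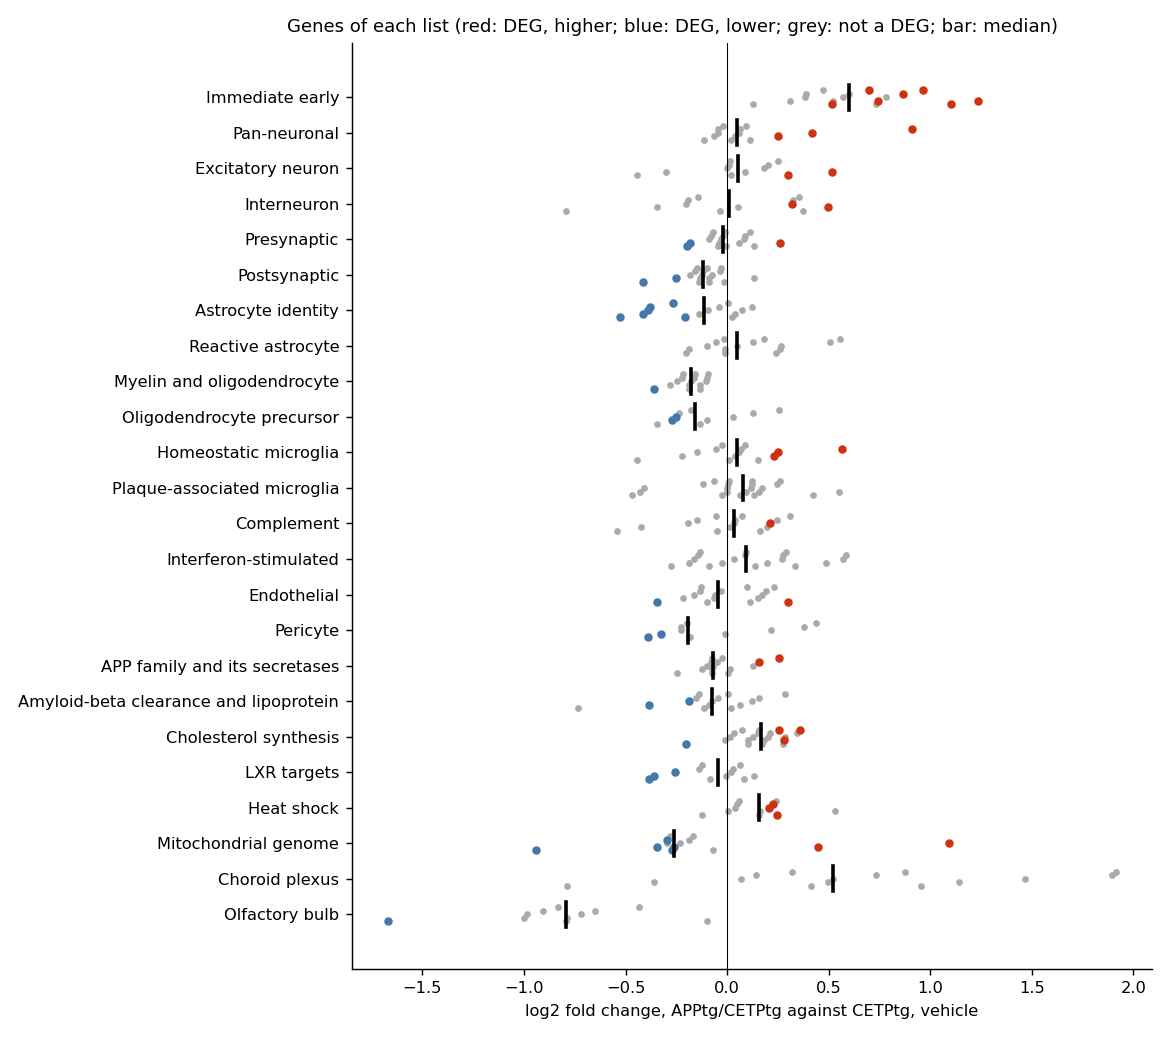
Log2 fold change of APPtg/CETPtg against CETPtg mice under vehicle for the genes of 24 lists, with upregulated DEGs in red, downregulated DEGs in blue, other genes in grey and the median of each list as a bar. All 17 immediate early genes lie above 0, 6 astrocyte identity genes are blue, and no plaque-associated microglia or reactive astrocyte gene is coloured.

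The lists of other glia and vessels held at most 2 DEGs each. Of all genes tested, 10.4% were DEGs in either direction. The share was larger than this in the oligodendrocyte precursor, pericyte and endothelial lists. It was smaller in the myelin, meningeal and fibroblast, and smooth muscle lists. All 15 myelin genes had a negative log2 fold change, with a median of -0.18, but only Ugt8a, an enzyme of myelin lipid synthesis, was downregulated (-0.36, edgeR, adjusted p = 0.00874). The list summed to 4910 to 5700 CPM in CETPtg and 3970 to 5280 CPM in APPtg/CETPtg mice, which overlapped. Of 10 genes of oligodendrocyte precursors, Vcan (-0.27) and Pdgfra (-0.25) were downregulated, and neither was without S1, S2 or S7. Of 16 endothelial genes, Egfl7 (0.30) was upregulated and the transporter Slco1a4 (-0.34) downregulated, and of 10 pericyte genes, Notch3 (-0.33) and Anpep (-0.39) were downregulated. Egfl7 was lost without S3 or S8, Slco1a4 without any mouse but S5, Notch3 without S8, and Anpep without any mouse but S8. Of these vessel and glial DEGs, Notch3 alone remained with the trend for GC content and length removed. Of 13 meningeal and fibroblast genes, Pdgfra was again the DEG. Of 9 smooth muscle genes, 0 were DEGs by edgeR or DESeq2 and 0 had an unadjusted p below 0.05, beside 25.2% of all genes tested.

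Among the genes of APP processing, 2 of 15 were upregulated, beside 5.98% of all genes tested. These were Psenen (0.25), a γ-secretase subunit, and Aplp1 (0.16), a relative of APP (edgeR, adjusted p = 0.0177 and 0.04). The β-secretase Bace1 (-0.07), the α-secretase Adam10 (-0.12) and the presenilin Psen2 (0.02) did not pass the test (edgeR, adjusted p = 0.341, 0.191 and 0.926). Neither did Aplp2, Bace2, Adam9, Adam17, Ncstn, Aph1a, Aph1b and Aph1c, whose log2 fold changes ran from -0.25 for Bace2 to 0.00 for Aph1a. Neither Psenen nor Aplp1 was a DEG without S2, without S8, with plate row as a block or with the trend for GC content and length removed. Aplp1 was also lost without S1, S3, S4, S6 or S7. Without S8 the only DEG of the list was Bace2, which was lower. Of 15 genes of amyloid-β clearance and brain lipoproteins, 2 were downregulated, beside 4.42% of all genes tested. These were the cholesterol exporter Abca1 and the receptor Lrp1 (-0.19). Abca1 had 57.2, 63.2, 64.1 and 57.9 CPM against 43.7, 53.5, 46.4 and 42.6 CPM (log2 fold change -0.38, edgeR, standard error 0.0962, adjusted p = 0.0172). Apoe, the main apolipoprotein of the brain, had 1340 to 1570 CPM against 1410 to 1580 CPM and a log2 fold change of 0.07 (edgeR, adjusted p = 0.572). Abca1 was not a DEG without S3 or S8, and Lrp1 was lost without any mouse but S7. Lrp1 was also lost with plate row as a block, and both genes with the trend for GC content and length removed.

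Of 20 cholesterol synthesis genes, 18 had a positive log2 fold change and 3 were upregulated, beside 5.98% of all genes tested. These were squalene synthase Fdft1 (0.36) and the mevalonate pathway kinases Pmvk (0.28) and Mvk (0.25). Ggps1 (-0.20), which leads to isoprenoids in place of sterols, was downregulated. Fdft1 had 95.7, 85.8, 90.2 and 85.7 CPM in CETPtg and 119, 129, 108 and 103 CPM in APPtg/CETPtg mice (edgeR, standard error 0.0799, adjusted p = 0.00903). Pmvk had 23.1 to 25.8 CPM against 29.3 to 31.2 CPM (edgeR, adjusted p = 0.00277). Of 12 LXR targets, which respond to oxysterols, Abca1, Scd1 and Scd2 were downregulated, beside 4.42% of all genes tested. The desaturase Scd1 had 183, 194, 208 and 198 CPM against 137, 175, 154 and 144 CPM (log2 fold change -0.36, edgeR, adjusted p = 0.00404). DESeq2's Wald test called 9 of the synthesis genes, and the number upregulated was 2 to 6 without 1 mouse, highest without S8. Fdft1, Pmvk and Scd1 remained DEGs with the trend for GC content and length removed, Mvk, Ggps1, Abca1 and Scd2 did not.

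Of 13 genes of the mitochondrial genome, 2 were upregulated and 5 downregulated, beside 5.98% and 4.42% of all genes tested. The complex I subunit mt-Nd4l had 4.98, 5.35, 5.07 and 4.97 CPM in CETPtg and 9.93, 10.3, 9.72 and 13.3 CPM in APPtg/CETPtg mice (log2 fold change 1.09, edgeR, standard error 0.129, adjusted p = 0.000114), and mt-Nd3 rose by 0.45 on the log2 scale (edgeR, adjusted p = 0.0389). mt-Atp8, of the ATP synthase, went the other way, with 5.40, 7.32, 7.44 and 5.36 CPM against 4.13, 3.43, 3.13 and 2.82 CPM (log2 fold change -0.94, edgeR, standard error 0.184, adjusted p = 0.0046). mt-Nd4 (-0.35), mt-Nd5 (-0.30), mt-Nd1 (-0.27) and mt-Co2 (-0.26) were also downregulated. Without S2, S3, S4 or S7, and with plate row as a block, only mt-Nd4l, mt-Atp8, mt-Nd4 and mt-Nd5 were DEGs, and with the trend for GC content and length removed only mt-Nd4l and mt-Nd3. Of 12 heat shock genes, the chaperones Dnajb1 (0.22), Hspa8 (0.25) and Hspe1 (0.20) were upregulated, beside 5.98% of all genes tested. The count was 0 without S2 or S3, only Hspa8 was called with plate row as a block, and only Dnajb1 with the trend removed. Of 17 genes each of the clock and of the unfolded protein response, 0 were DEGs in edgeR's test. An unadjusted p below 0.05 was found in 6 and 7 of them, beside 25.2% of all genes tested. DESeq2's Wald test called Nr1d2 and Nfil3 of the clock and Xbp1 of the unfolded protein response.

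Markers of neighbouring tissues differed from mouse to mouse within both genotypes. Ttr, the transport protein of the choroid plexus, had 1.08, 1.56, 138 and 0.705 CPM in CETPtg mice and 1.59, 2.7, 97.3 and 427 CPM in APPtg/CETPtg mice, so S3, S7 and S8 were high. Omp, of olfactory sensory neurons, had 1.83, 13, 10.5 and 11.6 CPM against 0.454, 17.6, 4.26 and 0.467 CPM, so S1, S5 and S8 were low. Of 15 choroid plexus genes, 0 were DEGs by edgeR or DESeq2 and 1 had an unadjusted p below 0.05, beside 25.2% of all genes tested. The choroid plexus list summed to 227 to 461 CPM in CETPtg and 185 to 837 CPM in APPtg/CETPtg mice.
All 11 olfactory bulb genes had a negative log2 fold change, and 1 of them, the dopamine transporter Slc6a3, was downregulated (-1.67, edgeR, standard error 0.495, adjusted p = 0.0382) with overlapping groups, 0.931, 2.04, 4.42 and 1.55 CPM against 0.363, 1.49, 0.837 and 0.359 CPM. The olfactory list summed to 372 to 571 CPM against 269 to 638 CPM. Of all genes tested, 4.42% were downregulated. Of 11 thalamic genes, Tcf7l2 (-0.82) and Rora (-0.40) were downregulated, beside the same 4.42% of all genes tested. Tcf7l2 had 4.86 to 8.36 CPM against 2.84 to 5.49 CPM, and the thalamic list summed to 565 to 643 CPM against 427 to 592 CPM.
Of 13 cerebellar genes, Fat2 (-1.47), a cadherin of granule cells, was downregulated with 0.423 to 0.631 CPM against 0.0907 to 0.406 CPM. Dkk3 (0.34) rose and Zbtb20 fell among 11 hippocampal genes. DEGs were 7.69% of the cerebellar and 18.2% of the hippocampal list, beside 10.4% of all genes tested. Of 14 striatal, 9 ependymal, 7 blood and 5 hypothalamic neuropeptide genes and the 1 pituitary gene tested, 0 were DEGs by edgeR or DESeq2. An unadjusted p below 0.05 was found in 3, 1, 0, 1 and 0 of them, beside 25.2% of all genes tested. DESeq2's Wald test called neither Slc6a3 nor Fat2. Slc6a3, Tcf7l2 and Fat2 were not DEGs with the trend for GC content and length removed. What share these tissues had in the other differences was not tested.

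The DEGs were spread over the genome. Between 7.02% (chromosome 12) and 13.2% (chromosome 19) of the genes tested on each autosome and the X chromosome were DEGs.

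The genotypes were also compared in the evacetrapib-treated mice, which share no mouse with the vehicle-treated ones but share the estimate of the spread and the separation of the genotypes by plate column. There were 556 DEGs (2.99%), 237 upregulated (1.27%) and 319 downregulated (1.71%). Of the 1934 DEGs under vehicle, 1818 (94.0%) had the same sign under evacetrapib, as did 66.2% of all genes tested. The DEGs shared with the same sign numbered 340, 17.6% of those under vehicle and 61.2% of those under evacetrapib, and 0 were called with opposite signs. The median log2 fold change of the upregulated genes was 0.25 under vehicle and 0.13 under evacetrapib, and that of the downregulated genes -0.27 and -0.16. With and without the trend for GC content and length, 44 genes were DEGs under both treatments, 32 upregulated and 12 downregulated. Foxp2, Bc1, Foxn3, mt-Nd4l and Cox7c were among them, together with the copies Rpl31-ps8, Gstp-ps and Gapdh-ps15.

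**Figure D5:**
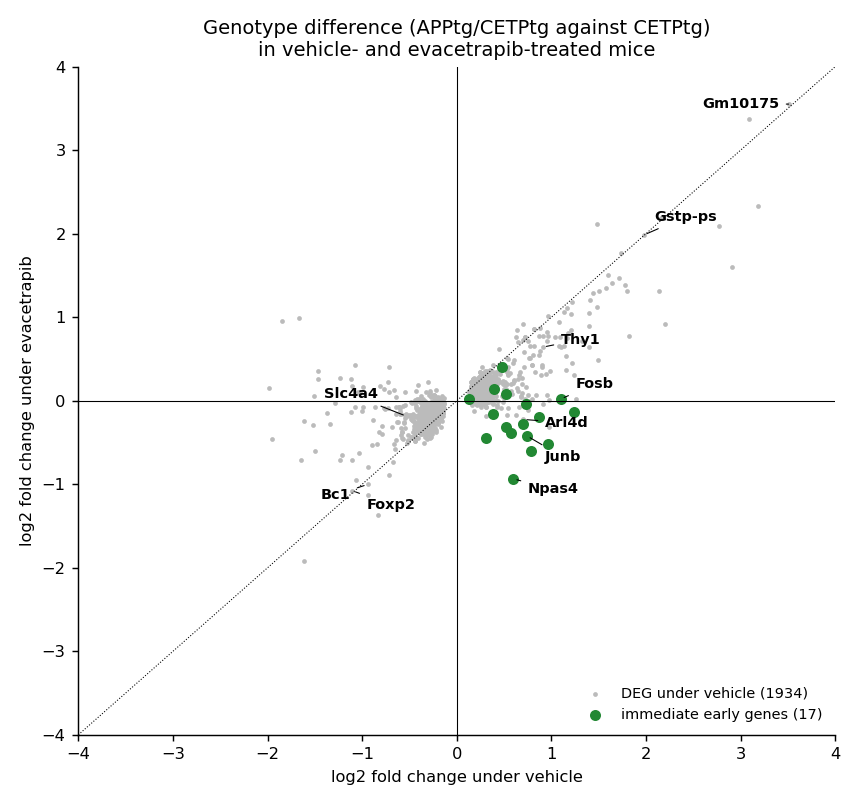
Log2 fold change of APPtg/CETPtg against CETPtg mice under vehicle and under evacetrapib for the 1934 DEGs under vehicle (grey) and the 17 immediate early genes (green), with a dotted line where both are equal. Foxp2, Bc1 and Gstp-ps lie near the line, while most immediate early genes lie to the right of 0 and at or below it, as for Npas4 and Junb.

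The difference between the genotype effects was tested directly. No gene had a DEG call in this interaction (0.0%), the smallest adjusted p being 0.127 in edgeR's test, and 1271 genes (6.83%) had an unadjusted p below 0.05. DESeq2's Wald test called 2 genes. The 5 genes with the smallest p were Arl4d, Npas4, Junb, Ccn1 and Egr4. Arl4d, a small GTPase, had 18.2, 25.3, 18.5 and 23.8 CPM in CETPtg and 39.3, 32.9, 36.8 and 30.9 CPM in APPtg/CETPtg mice under vehicle, a log2 fold change of 0.70 (edgeR, standard error 0.106, adjusted p = 0.000935). Under evacetrapib it had 21 to 24.1 CPM against 17.4 to 22.8 CPM, a log2 fold change of -0.22 (edgeR, adjusted p = 0.264).
Ccn1, a matricellular target of YAP, had log2 fold changes of 0.95 under vehicle and -0.54 under evacetrapib, Junb of 0.74 and -0.42, Npas4 of 0.60 and -0.94, and Egr4 of 0.70 and -0.28. Under evacetrapib only Npas4 of these passed edgeR's test (adjusted p = 0.0225), and under vehicle Npas4 alone did not. In the interaction, edgeR's test gave an adjusted p of 0.366 for Ccn1, 0.263 for Junb and for Npas4, and 0.47 for Egr4. The median log2 fold change of the 17 immediate early genes was 0.60 under vehicle and -0.20 under evacetrapib, where 5 were positive. No single gene of the list passed the test of this difference.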

How the data were processed

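Total RNA from bulk brain was enriched for poly(A) RNA and made into directional libraries. Per the labels and the paper's methods, the authors trimmed paired-end reads with Trimmomatic 0.39, aligned them to mm10 with STAR 2.7.8a, marked duplicates with Picard 2.0.1 and counted reads on genes with HTSeq. The deposited values are raw counts for 55487 gene identifiers in 16 mice, without normalization. The annotation, the strand setting and the treatment of reads with several matches are not given in the sources used here. Positions, lengths and GC content came from GENCODE M21 (GRCm38), in which 55227 identifiers matched.

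Testing was limited to the 18609 genes that reached 10 counts in 4 or more of the 16 mice. Counts were scaled by TMM and tested, two-sided, with edgeR 4.0.16 (R 4.3.3), in a quasi-likelihood fit with 1 mean for each of the 4 groups (12 residual degrees of freedom), with Benjamini-Hochberg adjustment over all genes tested. CPM values use TMM library sizes. The alternatives were DESeq2 1.42.0 (size factors and Wald test), limma 3.58.1 (voom), other filters and thresholds, the 8 vehicle-treated mice alone, plate row as a block, counts drawn down to 21391335 per mouse, each mouse left out, and offsets that remove the trend of each mouse with GC content and mean transcript length (splines with 5 degrees of freedom, 99.9% of genes tested). DEGs were genes that changed by 5% or more at an adjusted p no higher than 0.05. The fits were tested on simulated counts.

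Named genes are Thy1, App and the APP family, the 15 upregulated and 15 downregulated DEGs with the smallest p, the DEGs of the 37 gene lists, the 3 largest changes in the lists of microglia, complement and reactive astrocytes, and the 5 smallest p of the interaction. A few genes that this rule names are not reported here. Gm10175, Rpl10-ps3, Gapdh-ps15, Gapdh, Rpl31, S100a10, Igf1, Nr1d2, Nfil3, Xbp1, Trem2, Gfap, Arc, Egr1, Apoe, Ttr, Omp, Slc17a7 and the tissue markers were chosen after their values were seen or as markers. The members of the comparison and all lists were chosen with earlier results of these data known. Coding matches of pseudogenes were found with blastn over coding sequences, at 80% identity and 50% of the coding sequence. No label names a litter or an extraction day, so p-values measure the spread between these samples.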

Additional observations from a re-analysis of the deposited data

Results flagged for a closer look

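Within groups of 4 mice, the highest or lowest mouse was compared with the others by Dixon's test for the total counts and the genes whose values are given, 96 groups in all. Chance flags about 1 in 20 groups, and 9 were flagged. In APPtg/CETPtg mice these were the total of 55453789 counts in S8, 13.3 CPM of mt-Nd4l in S8, 51.4 CPM of Aqp4 in S5, 678 CPM of Uchl1 and 1970 CPM of Slc17a7 in S6, and 5.49 CPM of Tcf7l2 in S7. In CETPtg mice they were 1600 CPM of Gapdh in S1, 185 CPM of Sst in S2 and 138 CPM of Ttr in S3. S6, which was highest for Uchl1 and for Slc17a7, the vesicular glutamate transporter of cortical neurons, was also highest for Fosb. The causes of these values were not tested.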

How the results depend on the processing

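Against 1934 DEGs, there were 1130 with plate row as a block in the 8 vehicle-treated mice, 461 with the trend for GC content and length removed, 3007 at an adjusted p of at most 0.1 and 188 at a fold change of at least 1.5. Without 1 mouse there were 882 to 1670. DESeq2's size factors, its Wald test, limma-voom, other count filters, the 8 vehicle-treated mice alone and counts drawn down to the smallest total gave 1530 to 2429. The DEGs shared with the evacetrapib-treated mice numbered 340, 646 with the Wald test, 45 with the trend removed and 216 to 381 without 1 mouse. The interaction had 0 DEGs, 2 with the Wald test, 29 with no filter on low counts and 0 to 1 without 1 mouse. The log2 fold change of Thy1 was 0.62 to 1.06 without 1 mouse and 0.79 with the trend removed, where it did not pass the test (edgeR, adjusted p = 0.0621), and that of App was 0.06 to 0.16 without 1 mouse. Pclo turned from -0.20 to 0.041 with the trend removed (edgeR, adjusted p = 0.774). Same-row mice did not deviate together (correlations of -0.036 to 0.173), so rows were not taken as pairs. The trend removal takes out any genotype difference that follows length or GC content, whatever its cause, and the plate column cannot be told apart from the genotype. Genes under 10 counts in most mice could not be tested at this depth.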
